A study of Solanum lycopersicum with 12 samples.

Results

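The comparison asked at which loci a leaf spray of piperonylic acid (PA) changed transcript levels differently in roots and in shoots of tomato. Its members were the 13010 loci, of 34688 in the deposited table, whose normalized counts averaged 10 or more over the 6 root libraries and also over the 6 shoot libraries. Tomato seedlings of the cultivar Moneymaker had received the leaf spray on days 7 and 14 from transplanting and were sampled on day 15, each sample being a pool of 4 plants. PA root is the root tissue of plants sprayed with 300 µM PA and 0.1% Tween 20, mock root is the root tissue of plants given the matching mock spray, and PA shoot and mock shoot are the shoot tissues of plants treated in the same ways. Each of the 4 groups had 3 libraries, made from the 3′ ends of messenger RNA. For each locus the root PA effect is the mean log2(normalized count + 1) of PA root minus that of mock root, the shoot PA effect is the same for shoot, and the difference is the root effect minus the shoot effect. A positive difference therefore means a higher effect in root. Normalized counts are reads divided by 1 scaling factor per library, and folds on the log2(value + 1) scale understate changes at low levels. The lowest smaller tissue mean inside the rule was 10.02 and the highest outside it was 9.9992.

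PA blocks cinnamate 4-hydroxylase, a cytochrome P450 that hydroxylates cinnamic acid, the product of phenylalanine ammonia-lyase. The phenylpropanoid pathway that follows supplies lignin to vessels and root barriers, flavonoids and many defence compounds. Here the compound met the leaves, so the shoot samples held the sprayed tissue and the root samples held tissue that the spray was not aimed at. The files pair no locus identifier with a gene name, and 0 identifiers were found in the reference gene table, so loci appear by identifier, with the chromosome it carries and with no function.

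Libraries held 6065291 to 7386030 reads in PA root, 6158777 to 6262275 in mock root, 5465342 to 6736313 in PA shoot and 4214169 to 7127537 in mock shoot. The labels do not tell whether the pools of a group were grown separately, and p-values therefore cover the variation among these samples, part of which may be technical. The 95 loci at least 64-fold higher in mock root than in mock shoot, with a mean of at least 500 there, took 5.00 to 5.26% of reads in PA root, 4.62 to 5.24% in mock root, 0.0154 to 0.0220% in PA shoot and 0.0123 to 0.0151% in mock shoot. The 210 loci chosen likewise for mock shoot took 0.1097 to 0.202% in PA root, 0.106 to 0.139% in mock root, 18.8 to 18.9% in PA shoot and 20.1 to 21.5% in mock shoot. The choice of markers fixed their scarcity in the other mock tissue. In the PA libraries of the other tissue they were scarce as well. As shares of reads, root markers were somewhat higher in all 3 PA shoot libraries than in mock shoot. As normalized counts relative to the root of the same treatment, the groups overlapped. These levels were 0.349 to 0.495% in PA shoot and 0.307 to 0.410% in mock shoot. Shoot markers were higher in PA root replicates 2 and 3 than in mock root. The choice from mock libraries also favours higher PA values. Solyc09g011520.3 and Solyc04g078340.3, described below, meet the rule for root markers, so their own rise in PA shoot can enter these shares. The part of the markers in the results was not tested, and bounds for single loci are given below. Mock shoot replicate 1 stood apart from the other 5 shoot libraries, at -45.4 on the first principal component (42.0% of the variance) against -2.76 to 19.7, and key results are also given without it.

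PA had a different effect in root and shoot at 49 of the 13010 loci (0.377%), and at 31 of these the shoot level rose by itself, 29 of them with no root call. At 37 loci (0.284% of those tested) the root effect was lower, with a median of -0.21 in root and 0.87 in shoot. At 12 loci (0.0922%) the root effect was higher, with a median of 0.43 in root and -0.60 in shoot. Over all tested loci the medians were 0.03 in root and -0.02 in shoot. The test was limma on log2(value + 1) over all 12 libraries, two-sided, with Benjamini-Hochberg adjusted p below 0.05. In it the root and shoot libraries share 1 estimate of the spread per locus, whereas each single-tissue fit has its own. On the recovered whole reads, edgeR called 75 loci (0.576%, 13 higher and 62 lower) and DESeq2 called 177 (1.36%, 63 higher and 114 lower), and 46 loci were called by all 3 tools. In bulk tissue, more cells of a type and more RNA per cell cannot be told apart, and this holds for every result below.

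**Figure D1:**
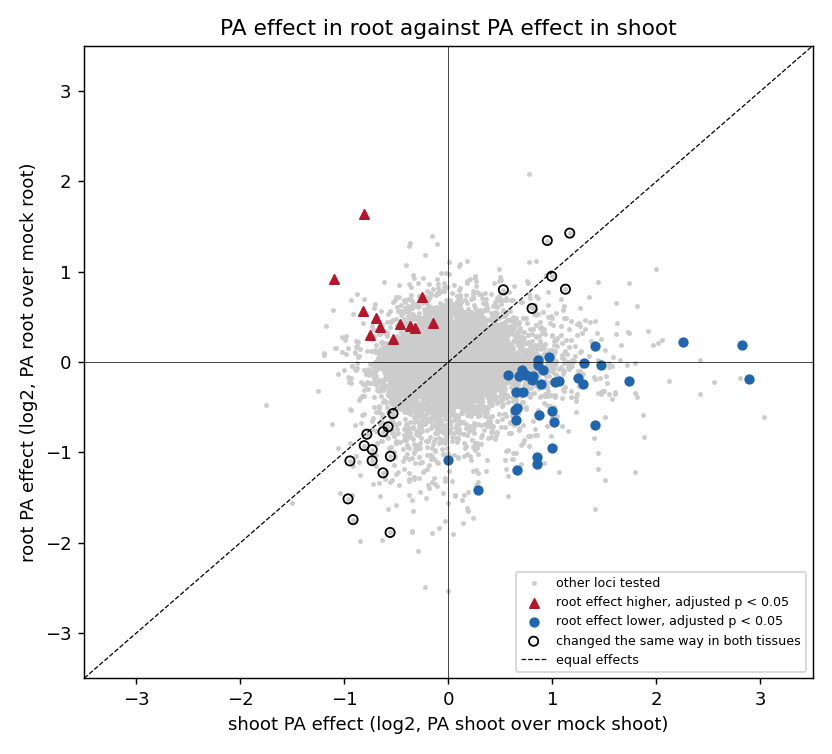
Root PA effect (vertical axis, log2 PA root over mock root) against shoot PA effect (horizontal axis, log2 PA shoot over mock shoot) for the 13010 loci tested, with the dashed line marking equal effects. The 37 loci with a lower root effect lie mostly to the right, at shoot effects from -0.01 to 2.89, the 12 with a higher root effect lie at the upper left, and the 19 that changed the same way in both tissues lie along the diagonal.

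Most of the 37 loci with a lower root effect were called in shoot. In root alone 6 of the 37 passed as falls, against 1.17% of all tested loci, and 0 as rises. In shoot alone 31 of the 37 passed as rises, against 0.884% of all tested loci, and 0 as falls. PA root lay wholly below mock root at 15 of the 37 loci (7.26% of all tested), and PA shoot lay wholly above mock shoot at 35 (8.06% of all tested). At the other 22 the PA root and mock root values overlapped, and each of these 22 had PA shoot wholly above mock shoot. These counts describe loci chosen by the difference itself, from the same libraries. Of the 37, 4 had a mock shoot mean below 10 and met the rule only through PA shoot, where they were high, and both loci described next are among these.

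Among the loci that passed, the lowest difference was at Solyc09g011520.3, on chromosome 9. Over all tested loci the difference reached -3.65, at a locus that did not pass. Solyc09g011520.3 had 1269.9, 1380.4 and 1795 normalized counts in PA root, against 1696, 1978 and 1395 in mock root. Shoot values were 72.3, 76.1 and 75.7 in PA shoot, against 14.9, 8.29 and 6.25 in mock shoot. All 3 PA shoot libraries were far above mock shoot and close to each other, while the root groups overlapped at a level that sprayed shoots did not approach. The root effect was -0.19 ± 0.14 (SE, n = 3 per group, limma adjusted p = 0.661) and the shoot effect was 2.89 ± 0.31 (limma adjusted p = 0.000625). The difference was -3.08 ± 0.31 (95% interval -3.75 to -2.41, limma adjusted p = 0.000274), and it was -3.40 without mock shoot replicate 1. Carried-over root tissue would leave root markers in shoot samples. These stood in PA shoot at 0.349 to 0.495% of their PA root level, which would give 5.17 to 7.33 normalized counts of Solyc09g011520.3 in PA shoot, against the 72.3 to 76.1 measured. In mock shoot the bounds were 6.93, 6.24 and 5.19, against measured values of 14.9, 8.29 and 6.25, so they were near the measured values in replicates 2 and 3 and not in replicate 1. The locus itself meets the rule for root markers, which were chosen as low in mock shoot. These bounds are therefore not independent of it, and the part of carried-over root RNA in its shoot values was not tested.

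Solyc04g078340.3, on chromosome 4, had a similar pattern. Its values were 822.4, 820.1 and 667.8 normalized counts in PA root, against 785.7, 741.8 and 520.2 in mock root. Shoots held 71.1, 71.5 and 54.3 in PA shoot, against 9.16, 10.1 and 6.25 in mock shoot. Sprayed shoots were again wholly above mock shoots and well below every root library, and the root groups overlapped. Root gave an effect of 0.19 ± 0.15 (SE, n = 3 per group, limma adjusted p = 0.671) and shoot one of 2.82 ± 0.29 (limma adjusted p = 0.000625). The difference was -2.63 ± 0.27 (95% interval -3.20 to -2.06, limma adjusted p = 0.000274). Its SE was below the 0.29 of the shoot effect, because the fit of the difference shares 1 spread with the closer root values. The interval may thus be too narrow for the low shoot values, and the same limit holds for Solyc09g011520.3. The bound from root markers was 2.69 to 3.81 normalized counts in PA shoot and 2.10 to 2.80 in mock shoot. This locus too meets the rule for root markers, so the same limit holds, and the part of carried-over RNA was not tested.

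Called loci lay near each other in 3 stretches of the table, whose rows follow the order of the identifiers. In the stretches on chromosomes 1 and 7, with 2 called loci each, 1 locus had a higher and 1 a lower root effect. In the stretch of Solyc09g011520.3, which spanned 8 consecutive rows on chromosome 9, 3 loci had a lower root effect and 4 loci were tested. Over those 4 the root effect ran from -0.27 to -0.03. Their shoot effects ran from 0.08 to 2.89 with a median of 1.14, 3 passed as rises in shoot, and at 3 of the 4 mock root was above mock shoot. Chromosome 9 held 7 of the 37 loci with a lower root effect and 7.27% of all tested loci. Chromosome 1 held 6 of the 12 with a higher root effect and 13.6% of all tested loci. The stretches and the chromosomes were picked after the values were seen and carry no test. How reads were assigned among similar neighbouring loci was not given in the sources used here, so these values are uncertain if the loci are near-identical copies.

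At each of the 12 loci with a higher root effect the root effect was above 0 and the shoot effect below 0, and the median difference was 1.01, against -1.28 at the 37. PA root lay wholly above mock root at 12 of the 12 (10.2% of all tested loci), and PA shoot lay wholly below mock shoot at 11 (11.5% of all tested). As single-tissue results, 2 passed as rises in root (0.369% of all tested), 4 passed as falls in shoot (0.638% of all tested) and 6 passed in neither tissue. Root effects ran from 0.26 to 1.64 and shoot effects from -1.10 to -0.15. For the 6 called in neither tissue, the test of the difference alone passed. As with the 37, the 12 were chosen by the difference itself, from the same libraries. That choice favours opposite signs and groups that do not overlap, so these counts are a description.

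Among the loci that passed, Solyc02g086700.5 on chromosome 2 had the highest difference. Its values were 112.7, 92.1 and 141.6 normalized counts in PA root, against 35.9, 21.1 and 60.1 in mock root. In shoot they were 36.8, 33.5 and 55.3 in PA shoot, against 96.2, 63.5 and 62.5 in mock shoot. PA and mock did not overlap in either tissue, and every mock root and PA shoot value was below every PA root and mock shoot value. The root effect was 1.64 ± 0.31 (SE, n = 3 per group, limma adjusted p = 0.0294) and the shoot effect was -0.81 ± 0.25 (limma adjusted p = 0.138). The difference was 2.45 ± 0.44 (95% interval 1.51 to 3.40, limma adjusted p = 0.0246). The limma adjusted p of this difference was 0.0513 and 0.0573 without mock root replicate 1 or 2, 0.0766 and 0.0878 without PA shoot replicate 1 or 2, and 0.0509 with no filter on low values. Its root call was lost without PA root replicate 1, PA root replicate 2 or mock root replicate 2 (limma adjusted p = 0.0798, 0.0803 and 0.0871).

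Solyc07g064160.3, on chromosome 7, was far more abundant. It had 1547, 2265 and 2196 normalized counts in PA root, against 1413, 1279.7 and 1324 in mock root. Shoots held 5635, 4126 and 5524 in PA shoot, against 10422, 7931 and 8538 in mock shoot. No PA value overlapped the mock values of its tissue, and the gap between roots and shoots was smaller with PA. The root effect of 0.56 ± 0.13 did not pass alone (SE, n = 3 per group, limma adjusted p = 0.0571), and the shoot effect was -0.82 ± 0.15 (limma adjusted p = 0.0132). The difference was 1.38 ± 0.21 (95% interval 0.92 to 1.84, limma adjusted p = 0.00997). Without PA shoot replicate 2 the shoot call was lost (limma adjusted p = 0.102).

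At 2 loci the level fell in root and rose in shoot with PA, each passing in its own tissue, and 0 loci did the reverse. They are named because the count is small, after their values were seen. Solyc01g107820.2, on chromosome 1, had 1149, 1045 and 1273 normalized counts in PA root, against 1515, 1862 and 1557 in mock root. In shoot it had 4398, 5202 and 4547 in PA shoot, against 2993, 2872 and 3058 in mock shoot. The groups were apart in both tissues and the libraries of each group were close together. The root effect was -0.51 ± 0.10 and the shoot effect 0.66 ± 0.10 (SE, n = 3 per group, limma adjusted p = 0.0387 and 0.0065). The difference was -1.17 ± 0.15 (95% interval -1.48 to -0.86, limma adjusted p = 0.00256).

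Solyc07g049530.3, on chromosome 7, was a shoot transcript with little root signal. It had 62.3, 46.1 and 75.4 normalized counts in PA root, against 92.7, 133.6 and 158.6 in mock root. In shoot it had 7363, 7350.3 and 5774 in PA shoot, against 2983, 4042 and 4392 in mock shoot. The groups did not overlap in either tissue. Effects were -1.05 ± 0.22 in root and 0.85 ± 0.15 in shoot (SE, n = 3 per group, limma adjusted p = 0.0421 and 0.0129). The difference was -1.90 ± 0.29 (95% interval -2.51 to -1.29, limma adjusted p = 0.00981). Shoot markers in the root libraries would give up to 33.2 to 61.7 normalized counts of this locus in PA root and 14.9 to 19.1 in mock root. In PA root replicate 2 the bound of 61.7 was above the measured 46.1, so the root level proper of this locus in PA root is uncertain, and the part of carried-over shoot RNA in its root values was not tested.

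For both loci the test of the difference passed without each library in turn, while the single-tissue calls did not. The root call of Solyc01g107820.2 was lost without PA root replicate 1 or 2 or mock root replicate 2 or 3 (limma adjusted p = 0.105, 0.174, 0.178 and 0.108), and its shoot call without PA shoot replicate 2 (0.0613). Without the same 4 root libraries the root call of Solyc07g049530.3 was lost (limma adjusted p = 0.099, 0.169, 0.183 and 0.178), and its shoot call without PA shoot replicate 1 or 2 (0.0837 and 0.106).

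Without mock shoot replicate 1 the differences were 2.25 at Solyc02g086700.5, 1.27 at Solyc07g064160.3, -2.69 at Solyc04g078340.3, -1.17 at Solyc01g107820.2 and -1.74 at Solyc07g049530.3, and the test passed at each.

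**Figure D2:**
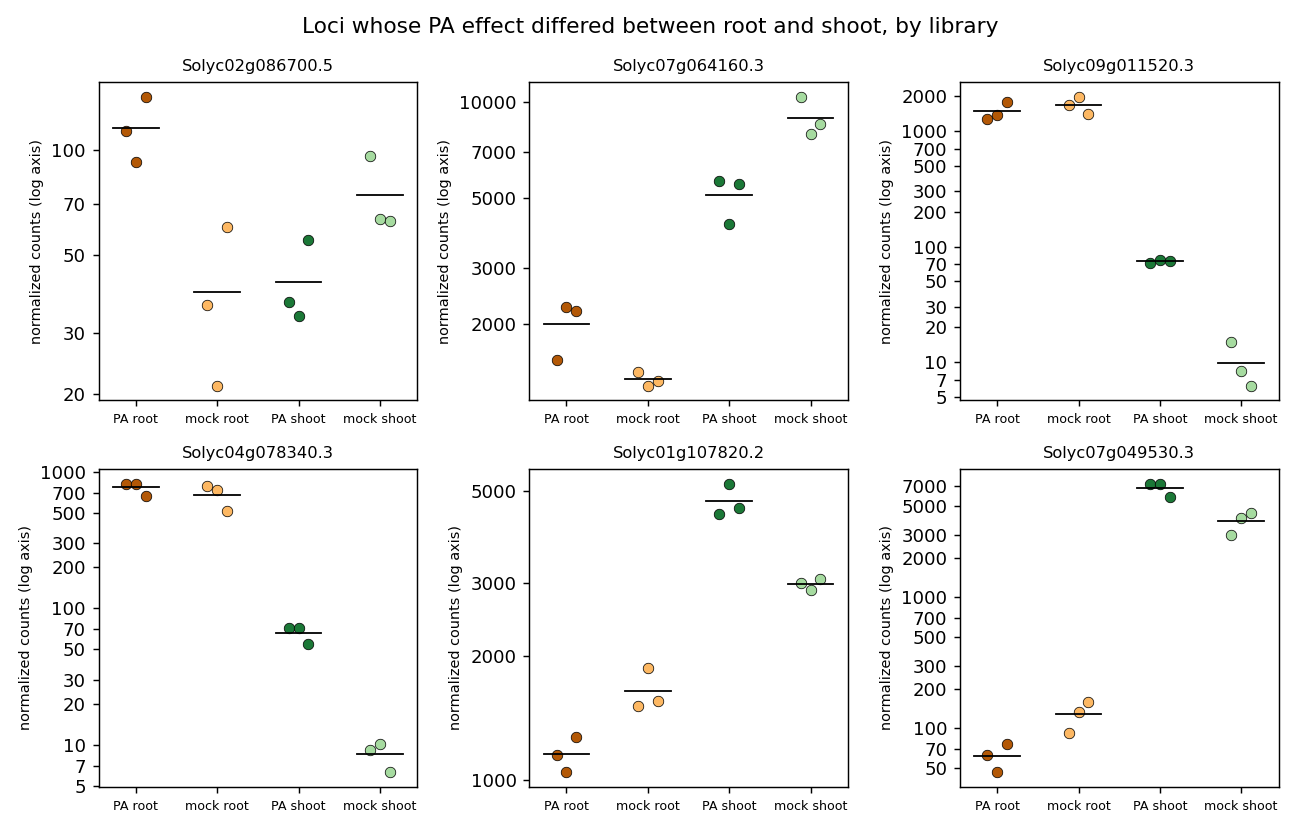
Normalized counts (log axis) of 6 loci in the 3 libraries of PA root, mock root, PA shoot and mock shoot, with a line at each group's mean. Solyc09g011520.3 and Solyc04g078340.3 differ between PA and mock in shoot and overlap in root, whereas in the other 4 loci the PA and mock groups are apart in both tissues and move in opposite directions.

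The libraries of a group did not contribute equally to the 49 loci. Values were set against the mean of the 3 mock libraries of the tissue. At the 37 loci with a lower root effect the median deviation was -0.29, -0.28 and -0.16 on the log2 scale in PA root replicates 1, 2 and 3, and 0.88, 1.03 and 0.86 in PA shoot replicates 1, 2 and 3. At the 12 with a higher root effect it was 0.36, 0.49 and 0.44 in PA root and -0.61, -0.58 and -0.42 in PA shoot. All PA libraries of a tissue lay on the same side. Within PA root, replicate 3 was nearest to mock at the 37 and replicate 1 at the 12. Within PA shoot, replicate 3 was nearest to mock in both sets. The mock libraries lay within -0.07 to 0.11. Since the loci were chosen by the difference from these same libraries, the choice favours a shared side. Centring on the mock mean also keeps mock values near 0, so these medians are a description.

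**Figure D3:**
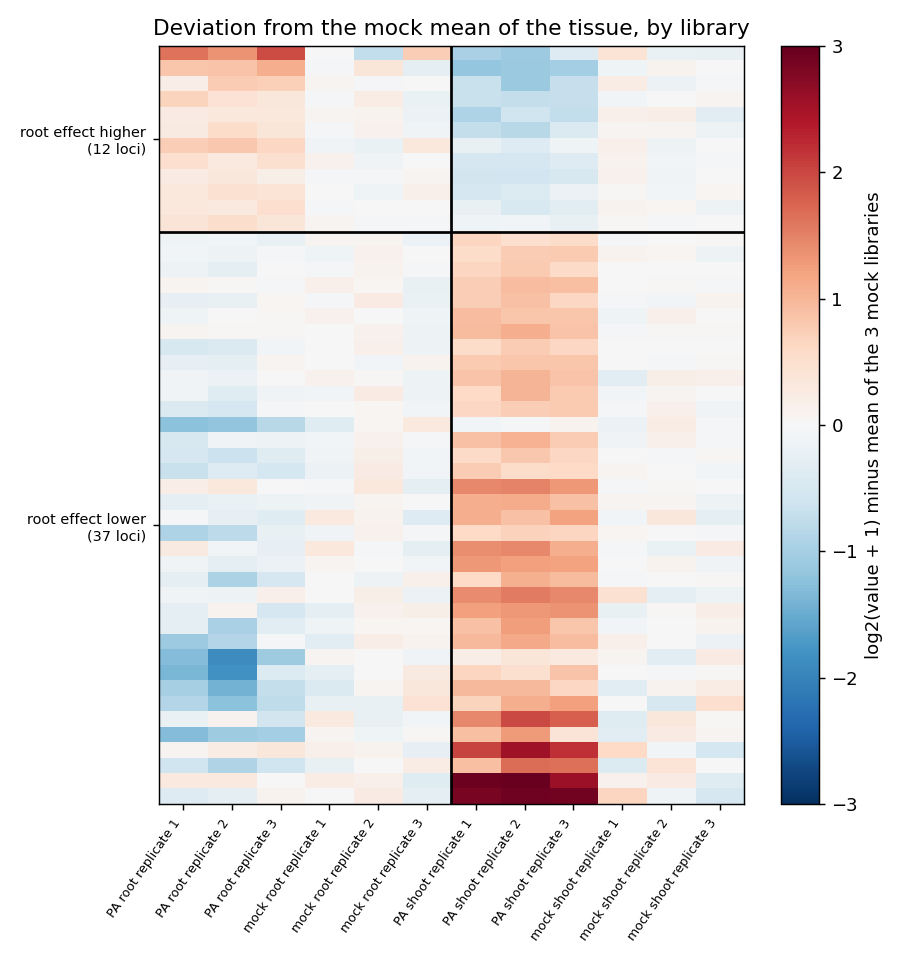
Deviation of each library from the mean of the 3 mock libraries of its tissue (colour, log2 scale) for the 49 loci whose PA effect differed, ordered by the difference. The strongest and most even colour is in PA shoot for the 37 loci of the lower block, and the 12 loci of the upper block are raised in PA root and lowered in PA shoot. The loci were chosen by the difference from these same libraries.

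At the 37 loci with a lower root effect the median level was 204.5 normalized counts in PA root, 289.5 in mock root, 398.6 in PA shoot and 183.8 in mock shoot. Mock root was above mock shoot at 23 of them (62.2%, against 50.6% of all tested loci). The median log2 ratio of root over shoot was -0.57 with PA and 0.60 with mock. At the 12 with a higher root effect the medians were 270.4 in PA root, 207.2 in mock root, 363.4 in PA shoot and 471.0 in mock shoot, and mock root was above mock shoot at 4. Mock levels enter both the difference and the ratio, so these values are a description. The gap between tissues was narrower with PA at 19 of the 37 and 7 of the 12, against 53.1% of all tested loci.

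Large differences were more often negative than positive, and most did not pass. At 429 loci (3.30%) the difference was at least 1 in size. It was at or below -1 at 349 loci, of which 28 passed, and at or above 1 at 80 loci, of which 6 passed. The median standard error was 0.46 and 0.40 in these sets, against 0.23 over all loci and 0.20 over the 49 that passed. The 349 had a median root effect of -0.51 and a median shoot effect of 0.84, and the root effect was the larger in size at 136. A cut on the difference itself favours a negative root and a positive shoot effect, so these values are a description. The spread between replicates was alike in the tissues, with a median SD of log2 values of 0.158 in PA root, 0.15 in mock root, 0.162 in PA shoot and 0.187 in mock shoot.

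At most loci the data limited how far the tissues could differ. The 95% interval of the difference lay within 1 on the log2 scale either way, a 2-fold difference, at 9457 loci (72.7%). It was 9474 loci without mock shoot replicate 1. The wider intervals at the other loci mean that a 2-fold difference there was not excluded by these libraries.

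Loci called in the fit of 1 tissue, whether or not called in the other, were then followed into the other tissue, which shares no library with it. These sets include the 6 loci that rose and the 13 that fell in both tissues, and the 2 with opposite calls. The 115 loci that rose in shoot had median effects of 0.06 in root and 0.86 in shoot, and the root effect was above 0 at 69 (60%), against 57.0% of all tested loci. The 83 loci that fell in shoot had median effects of -0.27 in root and -0.63 in shoot, and the root effect was below 0 at 64 (77.1%), against 43.0% of all tested loci.

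In the other direction, the 48 loci that rose in root had a median effect of 0.70 in root and 0.11 in shoot, and 36 of them (75%) were above 0 in shoot, against 46.8% of all tested loci. The 152 loci that fell in root had a median effect of -1.02 in root and -0.16 in shoot, and 103 of them (67.8%) were below 0 in shoot, against 53.2% of all tested loci. The choice raises the size of the effect in the tissue that made the call, and it may also touch the effect in the other tissue if root and shoot samples came from the same plants, which the labels do not tell. These shares describe loci that vary together and were not tested, nor was the contrast between rises and falls in shoot. Single libraries moved the counts: loci called in root numbered 58, 8 and 449 without PA root replicates 1, 2 and 3, leaving out 1 at a time, and 6 and 7 without mock root replicates 2 and 3. Loci called in shoot numbered 63 and 53 without PA shoot replicates 1 and 2, and 334 and 107 without mock shoot replicates 1 and 2.

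The interval of the difference sorted the same loci in another way. Of the 115 that rose in shoot, 31 passed for a different effect in root, another 31 had an interval within 2-fold either way, and for 53 the libraries allowed neither statement. Of the 83 that fell in shoot, 4 passed for a difference, 53 had an interval within 2-fold and 26 had neither. Of the 152 that fell in root, 6 passed, 41 had an interval within 2-fold and 105 had neither. Of the 48 that rose in root, 2 passed, 21 others had an interval within 2-fold and 25 had neither. Since the calls and the difference share libraries, these counts are a description. The rises in shoot thus held 31 of the 49 loci with a different effect.

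Some loci responded to PA in the same direction in roots and shoots. With PA 6 loci rose and 13 fell in both tissues. The difference between tissues passed at 0 of these 19 (limma adjusted p from 0.266 to 0.988). Its 95% interval included 0 at 16 and lay within 2-fold at 11. At the 13 that fell the root effect was the larger in size at 13, with root effects from -1.89 to -0.57 and shoot effects from -0.96 to -0.53. Over all tested loci the shoot effect was the larger in size at 7297 of 13010. All called falls, these 13 included, had a median of -1.02 in root and -0.63 in shoot. Whether the calls themselves favour a larger root effect was not tested. At the 6 that rose the root effects ran from 0.59 to 1.43 and the shoot effects from 0.53 to 1.17. A difference that did not pass does not show equal effects, and at 8 of the 19 the interval reached beyond 2-fold. Without PA root replicate 1 the split turned, with 8 loci that rose and 4 that fell. The 19 became 12, 2 and 39 loci without PA root replicates 1, 2 and 3, leaving out 1 at a time, 0 without mock root replicate 2 or 3, 5 and 4 without PA shoot replicates 1 and 2, and 32 and 8 without mock shoot replicates 1 and 2.

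Solyc10g055800.2, on chromosome 10, had nearly equal effects. It had 1831, 2562 and 1809 normalized counts in PA root, against 1046, 1100.4 and 1020.4 in mock root. In shoot it had 220.7, 231.9 and 224.1 in PA shoot, against 126.0, 98.5 and 115.6 in mock shoot. PA and mock were apart in both tissues, at a root level far above the shoot level. The root effect was 0.95 ± 0.12 and the shoot effect 0.99 ± 0.14 (SE, n = 3 per group, limma adjusted p = 0.00916 and 0.00301). The difference was -0.04 ± 0.18 (95% interval -0.43 to 0.34), and without 1 library it ran from -0.21 to 0.05. The locus in the next table row also rose in both tissues, by 0.81 in root and 1.13 in shoot. Without mock root replicate 2 or 3 the root call of Solyc10g055800.2 was lost (limma adjusted p = 0.0508 and 0.0539).

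Solyc12g088840.1, on chromosome 12, was the other named rise. It had 45.3, 55.3 and 44.2 normalized counts in PA root, against 15.7, 17.8 and 21.8 in mock root. In shoot it had 302.8, 253.8 and 261.9 in PA shoot, against 97.3, 188.8 and 149.9 in mock shoot. The groups did not overlap, and mock shoot replicate 1 was the lowest of its group. PA effects were 1.35 ± 0.21 in root and 0.95 ± 0.20 in shoot (SE, n = 3 per group, limma adjusted p = 0.0171 and 0.033), with a difference of 0.39 ± 0.30 (95% interval -0.24 to 1.03). The difference was 0.66 without mock shoot replicate 1 and 0.18 without mock shoot replicate 2. The root call was lost without PA root replicate 2 or mock root replicates 2 or 3 (limma adjusted p = 0.0865, 0.0847 and 0.0539), and the shoot call without PA shoot replicates 1, 2 or 3 (0.159, 0.138 and 0.0806).

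Among the loci that fell in both tissues, Solyc01g079200.5 on chromosome 1 had 44.4, 53.4 and 109.6 normalized counts in PA root, against 152.2, 182.7 and 225.7 in mock root. In shoot it had 328.6, 327.7 and 484.0 in PA shoot, against 728.3, 711.8 and 749.7 in mock shoot. The third PA library of each tissue was nearest to mock, and no groups overlapped. The root effect was -1.51 ± 0.28 and the shoot effect -0.96 ± 0.14 (SE, n = 3 per group, limma adjusted p = 0.0273 and 0.00473), with a difference of -0.55 ± 0.36 (95% interval -1.32 to 0.22). It was -0.29 and -0.94 without PA root replicates 1 and 3, and -0.36 without PA shoot replicate 3. The root call was lost without PA root replicates 1 or 2 or mock root replicates 2 or 3 (limma adjusted p = 0.0722, 0.127, 0.121 and 0.131).

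Solyc08g059710.4, on chromosome 8, had 86.3, 76.5 and 102.0 normalized counts in PA root, against 158.4, 185.2 and 227.4 in mock root. Shoot values were 53.9, 74.99 and 99.9 in PA shoot, against 135.1, 142.7 and 153.1 in mock shoot. Its levels were alike in the 2 tissues and PA lay below mock in each. Effects were -1.09 ± 0.16 in root and -0.95 ± 0.20 in shoot (SE, n = 3 per group, limma adjusted p = 0.0157 and 0.0352), with a difference of -0.15 ± 0.28 (95% interval -0.74 to 0.45). Without 1 library it ran from -0.37 to 0.07. Without PA root replicate 2 or mock root replicates 2 or 3 the root call was lost (limma adjusted p = 0.0657, 0.0734 and 0.0625). The shoot call was lost without PA shoot replicates 1 or 2 or mock shoot replicates 2 or 3 (0.142, 0.157, 0.106 and 0.0647).

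**Figure D4:**
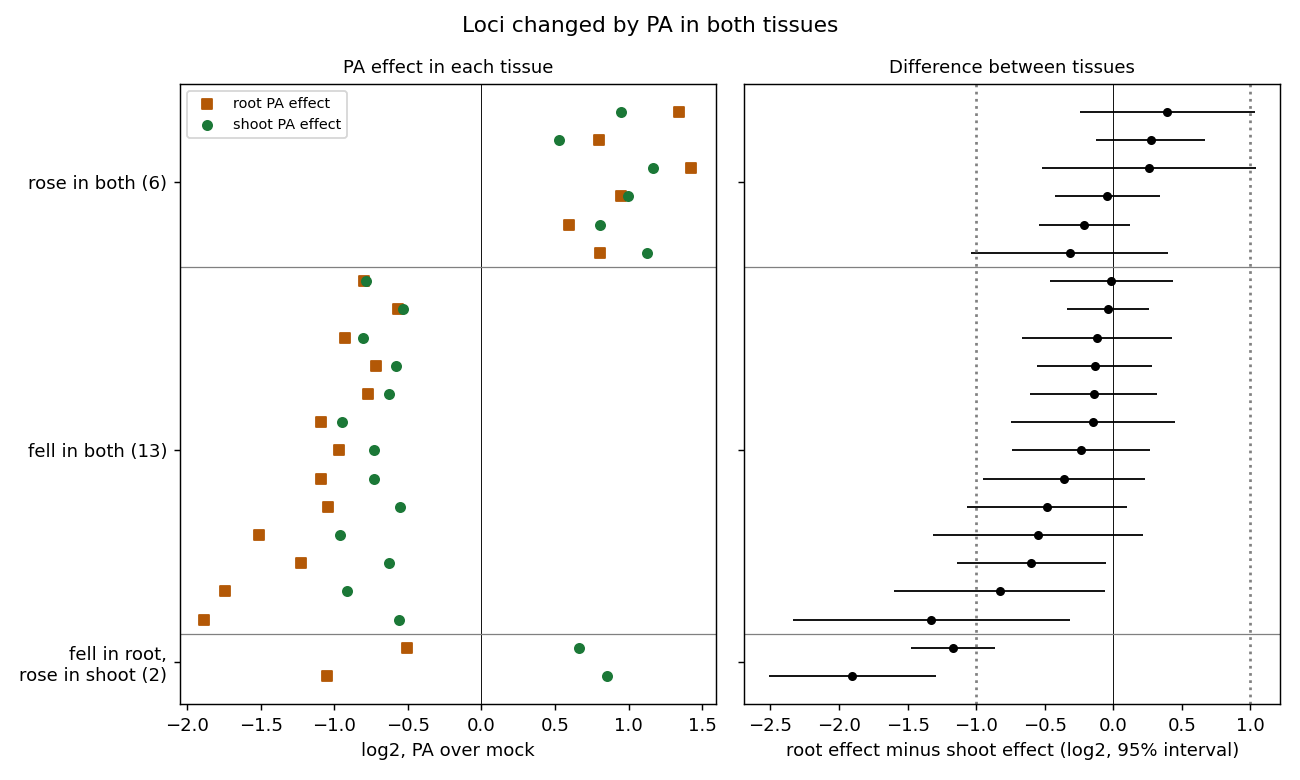
Left, root and shoot PA effect (log2, PA over mock) of the 19 loci changed the same way in both tissues and the 2 that fell in root and rose in shoot. Right, the root effect minus the shoot effect with its 95% interval, where dotted lines mark a 2-fold difference. Intervals of 16 of the 19 include 0, and those of the 2 opposite loci lie below 0.

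How many loci had a different effect depended on single libraries, and which direction was the more frequent depended on PA root replicate 1. Without PA root replicate 1 there were 44 loci with a higher and 31 with a lower root effect, 40 of them among the 49. Without PA root replicate 3 there were 160 loci (25 higher and 135 lower), which held 48 of the 49. Without mock root replicate 2 or PA shoot replicate 2 there were 15, each time all among the 49. Without PA root replicate 2 or PA shoot replicate 1 there were 24, of which 23 were among the 49 each time. There were 30 without PA shoot replicate 3, with 26 of the 49, and 85 without mock shoot replicate 3, with 46. Without mock shoot replicate 1, the library that stood apart, there were 45, with 6 higher and 39 lower, and 34 of the 49. Without mock root replicates 1 or 3 there were 41 each time, and without mock shoot replicate 2 there were 42. At no locus of the 49 did the direction of the difference turn when any library was left out. At 14 of the 49, with 12 among the lower and 2 among the higher, the call held without each library in turn, and these included Solyc09g011520.3, Solyc04g078340.3, Solyc07g064160.3, Solyc01g107820.2 and Solyc07g049530.3.

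**Figure D5:**
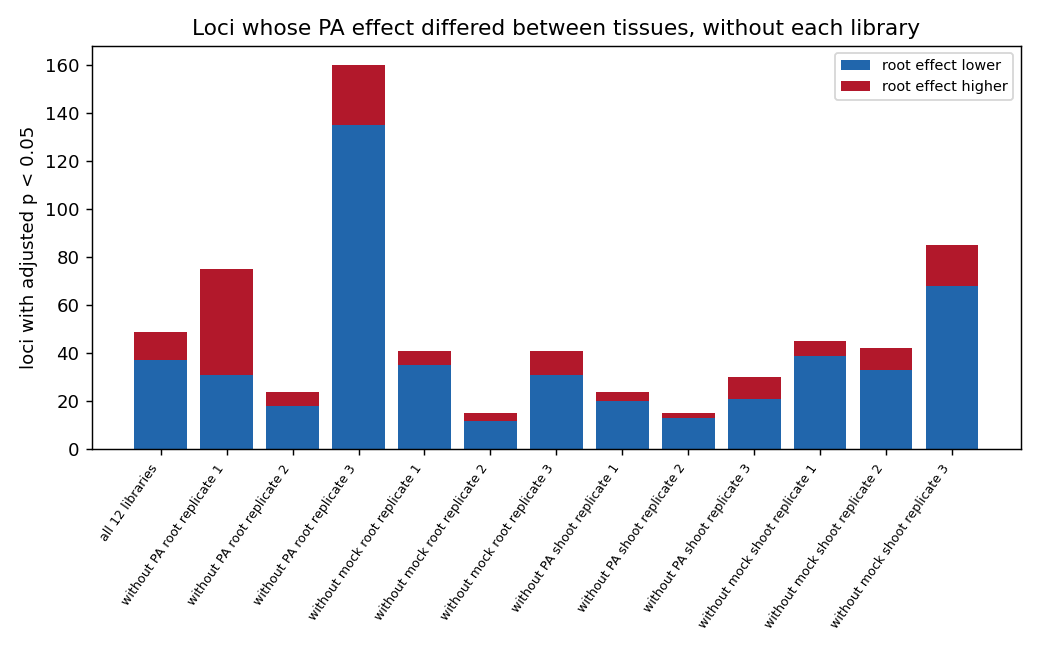
Number of loci whose PA effect differed between tissues (adjusted p below 0.05) with all 12 libraries and without each library, split into a lower and a higher root effect. The count runs from 15 to 160, and the higher root effects outnumber the lower ones without PA root replicate 1.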

How the data were processed

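Per the labels, 2 µg of RNA per pool of 4 plants entered a 3′-end library kit, and STAR 2.6.1d, Trimmomatic 0.38, FastQC 0.11.8 and DESeq2 are the tools listed in the submitters' processing notes. Which program counted the reads, on what genome build and gene models, was not given in the sources used here. Values deposited by the authors were normalized counts, a signal that is each count divided by a factor per library. Multiplying back gave whole numbers, to within 0.01, for 100% of values, and so 4214169 to 7386030 reads per library. All 12 columns were used.

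The difference was fitted with limma 3.58.1 (R 4.3.3, intensity trend, 1 mean per group), and each tissue was also fitted alone over loci with a mean of at least 10 in it. As alternatives the whole reads went into DESeq2 1.42.0 and into quasi-likelihood tests of edgeR 4.0.16, by which 75 loci passed. Fits were tested on simulated data, and figures drawn with matplotlib 3.10.9.

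Members, rules and tests were chosen with earlier results of these data known. Named loci are the 2 of highest and 2 of lowest difference with an adjusted p below 0.05 and a mean of at least 50, and, of loci changed the same way in both tissues, the 2 per direction with the largest smaller effect. Lists by product name were not used, as no identifier had a name. Markers and marker bounds were chosen after the data were seen. No replicates agreed within sampling noise (chi-square per degree of freedom of 4.071 to 10.71).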

Additional observations from a re-analysis of the deposited data

Results flagged for a closer look

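The difference between the root and the shoot PA effect passed at 49 loci. Of the named loci it passed at Solyc02g086700.5 with a difference of 2.45, at Solyc07g064160.3 with 1.38, at Solyc09g011520.3 with -3.08, at Solyc04g078340.3 with -2.63, at Solyc01g107820.2 with -1.17 and at Solyc07g049530.3 with -1.90, all on the log2 scale and by limma. Dixon's test for a single library far from its group was not run, since it was set for groups of 4 to 10 and each group had 3 libraries. Mock shoot replicate 1, which stood apart from the other shoot libraries, had the lowest sample quality weight, 0.407.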

How the results depend on the processing

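The count of 49 loci became 75 with edgeR (13 higher, 62 lower), 177 with DESeq2 (63 and 114, with 1766 adjusted p not given) and 102 with sample quality weights (24 and 78), and these shared 47, 48 and 49 loci with it. With the replicate number as a block it was 110 (23 and 87), which held all 49, and with root and shoot samples of a number as pairs, also a replicate block, it was 67 (10 and 57), which held 36 of the 49. Other settings gave 34 to 71 loci. Without 1 library the counts ran from 15 to 160 for the difference, 6 to 449 for loci changed in root, 53 to 334 in shoot, 0 to 39 for the same direction and 0 to 7 for opposite directions. With replicate number as a block within each tissue these 4 were 377, 326, 55 and 10, and same-direction loci numbered 10 with all 12 libraries in 1 fit. The opposite count and its alternatives were added after the data were seen. The labels do not give the numbers as pairs, and the main fit did not use them. Deviations of same-numbered samples correlated by -0.0762 to 0.115 over 18 pairs. These small values do not show that the numbers carry no shared variation. In 5 of 6 root and shoot pairs of a treatment the own number correlated best, a hint from the data and not from the design. It also did so in some pairs across treatments, and whether a shared batch raised the block counts was not tested. Loci with an interval within 2-fold numbered 7689 of 8505 with a filter of 50 and 8857 to 10336 of 13010 in the other settings. The differences of the 6 named loci that passed kept their direction in all alternatives run, and only Solyc02g086700.5 lost its call, in 5 of 24. Solyc09g011520.3 and Solyc04g078340.3 did not meet the filter of 50, so they had 23 alternatives each and were not tested in that setting. The causes of these changes were not tested. With 3 libraries a group, the median standard error of 0.23 limits which differences could pass.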
